A study of Mus musculus with 7 samples.

Results

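The genes described here are those of the ubiquitin system whose symbols begin with Uba and a digit from 1 to 7 (activating enzymes), Ube2 and a letter (conjugating enzymes), or Usp and a digit, Otu, or Uchl and a digit (deubiquitinases), with Usp18 left out. They were chosen by symbol alone and not by any measured value. Of the 9999 genes with a named probe set, 82 were members: 32 in the activating and conjugating class and 50 in the removing class. A RefSeq gene table (GRCm38.p6) lists 116 protein-coding genes under this rule, of which 81 were measured and 35, among them Uba1, Uba2, Ube2l3, Ube2m, Uchl1 and Uchl3, were not analysed here. The remaining member, Ube2d-ps, is a lncRNA in that table and carries a pseudogene's name. Usp6nl shares the Usp name but is a Rab GTPase-activating protein.

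The RNA was that of untreated RAW264.7 cells, a macrophage-like line of mouse origin, labelled T0. There were 3 arrays of wild-type cells (RAW WT) and 4 arrays of cells labelled RAW GfI1-1, which the series title and design text call a Gfi1 knockout. Gfi1 is a zinc finger repressor of transcription. The sample titles call every array a biological replicate. The sources used here do not state how Gfi1 was altered or whether the knockout cells are 1 clone. They also do not state whether these replicates are separate cultures, and p-values therefore reflect array-to-array spread, which may be technical. Per-array values are given in replicate order.

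Ubiquitin is a small protein that is attached to other proteins by a relay of enzymes. An activating enzyme (E1) charges ubiquitin and passes it to a conjugating enzyme (E2), which works with a ligase (E3) to place it on a substrate. Deubiquitinases take it off again, and in macrophages both steps set the strength of NF-kappaB and interferon signalling. Related relays attach the ubiquitin-like proteins NEDD8, SUMO and ISG15.

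All values below are log2 signal, a gene is read from the brightest of its probe sets (mean of all 7 arrays), and differences are knockout minus wild type. A gene passed when its limma adjusted p, over all 9999 genes, was under 0.05. The only Gfi1 probe set read 2.66, 2.85 and 2.98 in the wild-type arrays and 4.93, 5.02, 3.97 and 3.97 in the knockout arrays, so that it was higher in the arrays labelled knockout (limma adjusted p = 0.00447), which is not the direction of a loss of Gfi1 RNA. Its wild-type mean lay under 3.51, the limit of the lowest 5% of genes there, and no size of the difference is given. The sources used here do not state whether the probe set reads the altered part of the gene, so it does not check the labels. Wild type and knockout below therefore mean the arrays so labelled, and every direction rests on those labels. All 8 macrophage markers checked were measured. Their summed signal was 14.77 to 14.79 in wild type and 14.21 to 14.28 in knockout, and 7 of the 8 were lower in knockout. Of 25 markers of fibroblasts, T cells, B cells, epithelial and erythroid cells, only Epor was measured, so other cell types could not be checked. Over the 82 members, knockout replicates 1 and 2 differed by a median of 0.07 and replicates 3 and 4 by 0.05, as little as the wild-type arrays among themselves (0.05 to 0.09). Between these pairs of knockout arrays the median was 0.21 to 0.24. A fit that treats the wild-type arrays and each knockout pair as random blocks, called the blocked fit below, was therefore run as well, and its adjusted p, over the same genes or probe sets, is written as the blocked adjusted p. In it all wild-type arrays form 1 block and the knockout arrays form 2, with a shared correlation for all genes. The blocked adjusted p can therefore still be too small, above all where the knockout pairs lie far apart.

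Both classes held rises and falls. Of the 50 removing genes, 14 rose and 11 fell in knockout, 50% in all, and of the 32 activating and conjugating genes, 6 rose and 2 fell, 25% in all. Among all 9999 genes 43.1% passed, 21.5% higher and 21.6% lower. The median absolute difference was 0.34 for removing genes, 0.15 for conjugating genes and 0.28 for all genes. Signed medians were near 0 in each set, at 0.10, 0.11 and -0.01. They lay between 0.06 and 0.13 for removing genes and between 0.05 and 0.14 for conjugating genes in every knockout array. Whether the classes differ in their share of changed genes was not tested. In bulk RNA such as this, fewer cells of a kind and less RNA per cell cannot be told apart. With Ube2d-ps, Usp6nl and the enzymes of ubiquitin-like proteins left out, 25 of 49 removing and 8 of 27 conjugating genes passed.

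**Figure D1:**
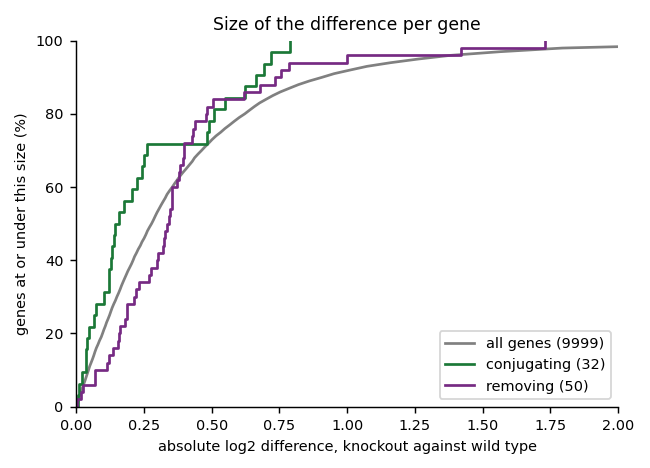
Share of genes (y axis, percent) whose absolute log2 difference between knockout and wild type is at or under the value on the x axis, for all 9999 genes, the 32 activating and conjugating genes and the 50 removing genes. The conjugating curve lies to the left, with a median of 0.15, and the removing curve has a median of 0.34 against 0.28 for all genes.

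Few members passed when close arrays were treated as blocks. In the blocked fit 7 of 82 members passed, 8.54%, against 9.04% of all genes: Otud7b, Usp22, Usp39 and Ube2j1 higher, and Otud1, Otulinl and Usp2 lower. Run over 17335 probe sets instead, it gave blocked adjusted p of 0.05002 for Otud7b, 0.0506 for Ube2j1, 0.0509 for Usp2 and 0.0513 for Usp39. These brightest probe sets did not pass there, while those of Usp22, Otud1 and Otulinl did. The other probe set of Usp2, 1417168_a_at, also passed (blocked adjusted p = 0.026). All 4 knockout arrays lay on 1 side of all 3 wild-type arrays for 52 members, 63.4%, against 54.5% of all genes. By 2-fold or more only Otub2 and Otud1 changed, against 7.56% of all genes. For 16 members, 19.5%, at least 1 knockout array lay above and at least 1 below all wild-type arrays, against 18.6% of all genes. Of these 16, 10 were conjugating genes (31.2% of their class) and 6 were removing genes (12%).

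**Figure D2:**
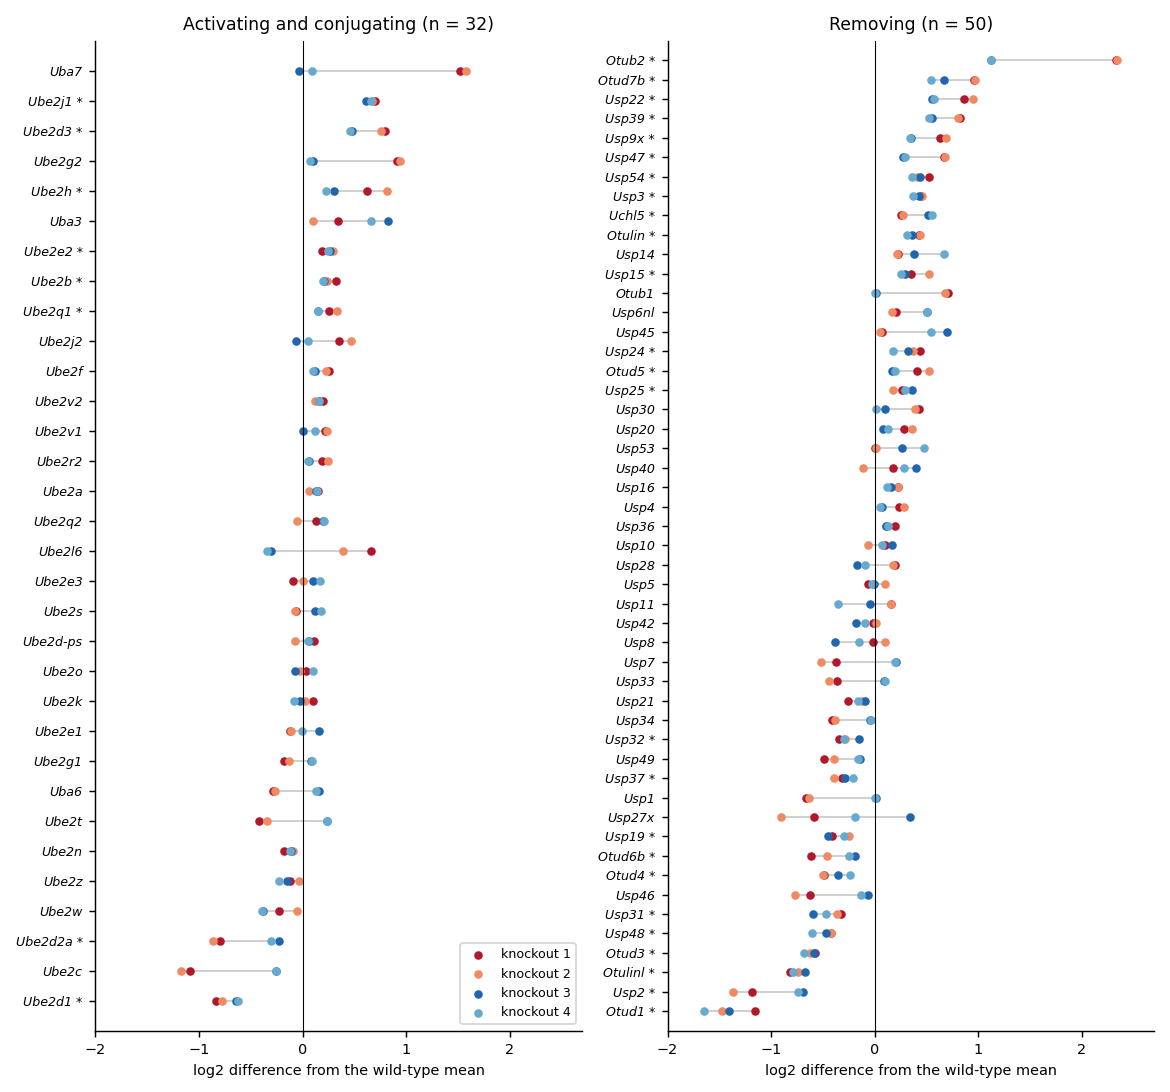
Log2 difference of each knockout array from the wild-type mean (x axis) for every member, ordered by mean difference. Points are the 4 knockout arrays, grey lines their range, and an asterisk marks a limma adjusted p under 0.05. Replicates 1 and 2 sit together and apart from replicates 3 and 4 for Uba7, Ube2c, Otub2 and Usp1.

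The promoters of 3 genes are shown because these had the largest rise (Otub2), the widest spread between knockout arrays among the activating and conjugating genes (Uba7) and the largest fall (Otud1). Each runs from 250 bases before to 50 bases after a transcription start in RefSeq (GRCm38.p6), and 64 of the 82 members had such an entry. Capitals in Otub2 and Uba7 mark the AP-1 motif TGANTCA, and capitals in Otud1 mark the E-box CACGTG, searched on both strands. The Otub2 window shown (chr12:103376644-103376943, plus strand) is the first of 3 starts listed, and the other starts held no TGANTCA. The Uba7 window is chr9:107975317-107975616, plus strand, and the Otud1 window is chr2:19657481-19657780, plus strand.
Otub2: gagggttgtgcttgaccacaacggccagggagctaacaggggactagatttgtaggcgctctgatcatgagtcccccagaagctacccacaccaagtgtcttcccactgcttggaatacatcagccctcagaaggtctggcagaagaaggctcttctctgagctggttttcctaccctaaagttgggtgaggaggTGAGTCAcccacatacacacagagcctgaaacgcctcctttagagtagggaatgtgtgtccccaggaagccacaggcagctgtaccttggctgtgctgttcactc
Uba7: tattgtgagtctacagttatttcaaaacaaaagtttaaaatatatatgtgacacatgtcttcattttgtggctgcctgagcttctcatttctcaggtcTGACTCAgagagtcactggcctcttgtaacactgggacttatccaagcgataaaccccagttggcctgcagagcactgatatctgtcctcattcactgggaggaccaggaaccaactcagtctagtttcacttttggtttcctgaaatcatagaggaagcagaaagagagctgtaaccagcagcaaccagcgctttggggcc
Otud1: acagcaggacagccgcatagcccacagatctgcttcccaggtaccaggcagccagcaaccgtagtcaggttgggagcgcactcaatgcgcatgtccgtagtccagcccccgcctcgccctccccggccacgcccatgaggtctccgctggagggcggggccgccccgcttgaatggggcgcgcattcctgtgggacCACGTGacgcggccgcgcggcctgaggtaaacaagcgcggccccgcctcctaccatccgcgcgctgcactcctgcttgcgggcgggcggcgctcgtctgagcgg
TGANTCA was found in 7.81% of all 32851 promoter windows and in 4 of the 64 members (Otub2, Uba7, Usp10 and Usp31). CACGTG was found in 7.15% of windows and 9 of 64 members. AATCAC, part of the Gfi1 recognition sequence, was in 10.4% of windows and 5 members (Ube2a, Ube2h, Ube2t, Usp40 and Usp6nl). A member can have several windows, so its share is not on the same footing as the share of windows.

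No activating enzyme passed the test on its brightest probe set. Uba7, which charges the interferon-induced modifier ISG15, read 6.74, 6.29 and 6.41 in the wild-type arrays and 8.001, 8.06, 6.45 and 6.57 in the knockout arrays. Replicates 1 and 2 lay above all wild-type arrays, while replicates 3 and 4 overlapped with them, and the difference was 0.79 (SE 0.45, limma adjusted p = 0.191). Uba3, the catalytic subunit of the NEDD8 E1, read 7.42, 7.46 and 7.34 in the wild-type arrays and 7.75, 7.51, 8.23 and 8.07 in the knockout arrays, a difference of 0.48 (SE 0.17, limma adjusted p = 0.0534). All 4 knockout arrays were above wild type, and here replicates 3 and 4 were the higher. The 2 other probe sets of Uba3 rose, 1417202_s_at by 0.38 (adjusted p = 0.0107, blocked adjusted p = 0.213) and 1431746_a_at by 0.99 (adjusted p = 0.00239, blocked adjusted p = 0.0605), and the mean of all 3 rose by 0.62 (adjusted p = 0.000346). Uba6, an E1 for ubiquitin, read 8.59, 8.51 and 8.50 in the wild-type arrays and 8.25, 8.27, 8.69 and 8.66 in the knockout arrays, so that replicates 1 and 2 lay below and replicates 3 and 4 above wild type.

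Among the broad E2s, which work with many ligases, 4 of 7 passed and they split. Ube2d1 fell, from 6.02, 5.87 and 5.84 in wild type to 5.07, 5.13, 5.27 and 5.29 in knockout, by 0.72 (SE 0.08, limma adjusted p = 0.000646, blocked adjusted p = 0.051), with groups well apart. Its near relative Ube2d2a fell by 0.55 (SE 0.17, limma adjusted p = 0.0393, blocked adjusted p = 0.211), from 9.88, 10.06 and 10.02 to 9.19, 9.12, 9.76 and 9.69. The fall was larger in replicates 1 and 2. Ube2d3 went the other way on its brightest probe set, from 11.35, 11.44 and 11.46 to 12.22, 12.17, 11.89 and 11.88, a rise of 0.62 (SE 0.11, limma adjusted p = 0.00333, blocked adjusted p = 0.0677), but not on most of its other probe sets, described below. Ube2e2 rose by 0.25 (SE 0.06, limma adjusted p = 0.0148, blocked adjusted p = 0.396), from 7.31, 7.27 and 7.18 to 7.45, 7.55, 7.52 and 7.50, and its knockout arrays lay close together. Ube2e1, Ube2e3 and Ube2w had differences of -0.02, 0.05 and -0.26 and did not pass on their brightest probe sets. In the blocked fit none of the 4 passed on its brightest probe set, but dimmer ones that fell did. For Ube2d3 these were 1423114_at and 1450859_s_at (blocked adjusted p = 0.0193 and 0.0158). For Ube2d2a they were 1448356_at and 1416477_at (blocked adjusted p = 0.0139 and 0.0353).

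Ube2j1, an E2 anchored in the endoplasmic reticulum membrane that serves the removal of misfolded proteins, read 7.58, 7.44 and 7.47 in the wild-type arrays and 8.20, 8.17, 8.11 and 8.16 in the knockout arrays. The groups were apart and the knockout arrays close together, with a rise of 0.66 (SE 0.06, limma adjusted p = 0.000266, blocked adjusted p = 0.0398) that also passed in the blocked fit. Its second, dimmer probe set pointed down, at -0.56 (SE 0.24, adjusted p = 0.106), and did not pass. Ube2g2, which acts in the same process, read 8.10, 8.10 and 7.94 in the wild-type arrays and 8.96, 8.99, 8.15 and 8.12 in the knockout arrays. Only replicates 1 and 2 stood clear of wild type and the difference of 0.51 (SE 0.25) did not pass. Ube2j2 stood at 0.20 (SE 0.14) and did not pass.

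E2s of the cell cycle differed between knockout arrays. Ube2c, which starts chains for the anaphase-promoting complex, read 10.48, 10.53 and 10.50 in the wild-type arrays and 9.42, 9.33, 10.25 and 10.25 in the knockout arrays. All knockout arrays were lower than wild type, replicates 1 and 2 (-1.08 and -1.18 from the wild-type mean) further than replicates 3 and 4 (-0.25 and -0.25), and the difference of -0.69 (SE 0.26, limma adjusted p = 0.0644) did not pass. Ube2s, which extends those chains, read 11.28, 11.30 and 11.34 in the wild-type arrays and 11.24, 11.23, 11.42 and 11.48 in the knockout arrays, a difference of 0.04 (SE 0.08) with overlapping groups. Ube2t, an E2 of Fanconi anaemia repair, read 7.24, 7.22 and 7.21 in the wild-type arrays and 6.80, 6.88, 7.46 and 7.46 in the knockout arrays, below wild type in replicates 1 and 2 and above it in replicates 3 and 4. Ube2b, a RAD6 homologue of DNA damage tolerance, read 10.09, 10.18 and 10.24 in the wild-type arrays and 10.50, 10.41, 10.38 and 10.37 in the knockout arrays on its brightest probe set, a rise of 0.24 (SE 0.07, limma adjusted p = 0.0229, blocked adjusted p = 0.429). Its other probe set, 1423106_at, went the other way, at -1.10 (adjusted p = 0.000376, blocked adjusted p = 0.0096), and the mean of both stood at -0.43 (adjusted p = 0.00163). Its paralogue Ube2a also differed between probe sets: the brightest probe set stood at 0.12 (SE 0.06) without passing, and 1417609_at fell from 7.89, 7.85 and 7.79 to 6.12, 6.22, 6.54 and 6.52, a difference of -1.49 (adjusted p = 0.000222, blocked adjusted p = 0.00565), the lowest blocked adjusted p of any member's probe set. Of 17 genes of the anaphase-promoting complex and its regulators, 3 rose and 4 fell, and 3 passed in the blocked fit. Among them the subunit genes Anapc11 and Anapc13 fell by 1.08 (blocked adjusted p = 0.0119) and 0.72 (blocked adjusted p = 0.0189), and the inhibitor gene Fbxo5 fell by 1.07 (blocked adjusted p = 0.0983), from 8.13, 8.11 and 8.02 to 6.64, 6.43, 7.50 and 7.52, with replicates 1 and 2 the lower as for Ube2c.

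The E2s that build signalling chains did not pass on their brightest probe sets, while dimmer ones of Ube2n and Ube2v2 fell. Ube2n, the E2 of the signalling chains used by Toll-like and cytokine receptors, read 8.84, 8.81 and 8.79 in the wild-type arrays and 8.63, 8.72, 8.70 and 8.69 in the knockout arrays, a difference of -0.13 (SE 0.06, limma adjusted p = 0.0962). All knockout arrays were a little lower. Its other probe set, 1435384_at, much dimmer, stood at -1.17 (adjusted p = 0.00547, blocked adjusted p = 0.101), and the mean of both at -0.65 (adjusted p = 0.005). Ube2v1, a catalytically inactive partner of Ube2n, read 9.99, 9.81 and 9.80 in the wild-type arrays and 10.08, 10.10, 9.87 and 9.99 in the knockout arrays, a difference of 0.14 (SE 0.08). Ube2v2, another such partner, stood at 0.16 (SE 0.06) on its brightest probe set. Of its other probe sets, 1417984_at stood at -0.91 (adjusted p = 0.0339, blocked adjusted p = 0.203), and 1429131_at, with a wild-type mean under 3.51, was also lower (adjusted p = 0.0256, blocked adjusted p = 0.388). Ube2l6, the E2 of ISG15, read 5.04, 5.06 and 5.005 in the wild-type arrays and 5.70, 5.43, 4.73 and 4.70 in the knockout arrays, higher than wild type in replicates 1 and 2 and lower in replicates 3 and 4. Ube2k and Ube2r2, E2s of degradation chains, stood at 0.00 and 0.14 on their brightest probe sets. A dimmer one of Ube2k, 1417188_s_at, was lower (adjusted p = 0.0176, blocked adjusted p = 0.103), with a low knockout mean of 2.82. Of the remaining E2s, Ube2h read 7.68, 7.81 and 7.75 in the wild-type arrays and 8.37, 8.56, 8.05 and 7.97 in the knockout arrays, a rise of 0.49 (SE 0.15, limma adjusted p = 0.032, blocked adjusted p = 0.243) that was lost without any 1 of the wild-type arrays (adjusted p = 0.075 to 0.1) and whose direction was not settled, since the probe set brightest in wild type stood at -0.58 (adjusted p = 0.00107) and the mean of its probe sets at -0.11 (adjusted p = 0.296). Ube2q1 read 9.50, 9.45 and 9.39 in the wild-type arrays and 9.71, 9.78, 9.60 and 9.60 in the knockout arrays, a rise of 0.22 (SE 0.07, limma adjusted p = 0.0382, blocked adjusted p = 0.432). Ube2z, Ube2o, Ube2q2, Ube2g1 and Ube2f, the other NEDD8 E2, lay between -0.13 and 0.18 on their brightest probe sets and did not pass. The dimmer probe set of Ube2z, 1436635_at, stood at -0.56 (adjusted p = 0.0177, blocked adjusted p = 0.241).

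Of the 10 measured members with symbols beginning with Otu, 9 passed the threshold, 4 higher and 5 lower, against 43.1% of all genes. They are a group by symbol and not the whole OTU family, whose deubiquitinases are often choosy about chain type. In the blocked fit 3 of the 10 passed (Otud1, Otud7b and Otulinl), and no test set this group against other genes. Otub2 had the largest difference of all members, each read from its brightest probe set. It read 5.95, 5.52 and 5.44 in the wild-type arrays and 7.97, 7.98, 6.76 and 6.76 in the knockout arrays. Every knockout array was above wild type, replicates 1 and 2 by more than replicates 3 and 4, and the rise was 1.73 (SE 0.37, limma adjusted p = 0.00843, blocked adjusted p = 0.0714). Its second probe set was also higher in knockout (adjusted p = 0.0119, blocked adjusted p = 0.111), but its wild-type mean of 2.41 lay under 3.51, and no size of that difference is given. The paralogue Otub1, which also blocks Ube2n without cleaving chains, read 6.65, 6.46 and 6.40 in the wild-type arrays and 7.21, 7.18, 6.52 and 6.51 in the knockout arrays. Replicates 3 and 4 overlapped with wild type, and the difference of 0.35 (SE 0.21, limma adjusted p = 0.208) did not pass.

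Otud1 fell furthest of all members, each read from its brightest probe set. It read 5.31, 5.06 and 5.14 in the wild-type arrays and 4.01, 3.70, 3.77 and 3.52 in the knockout arrays, a fall of 1.42 (SE 0.12, limma adjusted p = 0.000211, blocked adjusted p = 0.032). The groups were more than 1 log2 unit apart, though the knockout signal was low. Otulin, which cleaves the linear chains that feed NF-kappaB signalling, rose from 7.74, 7.68 and 7.69 to 8.13, 8.14, 8.07 and 8.01, by 0.38 (SE 0.06, limma adjusted p = 0.00242, blocked adjusted p = 0.142). Its relative Otulinl, which has no known cleaving activity, fell from 9.14, 9.10 and 9.14 to 8.30, 8.38, 8.46 and 8.33, by 0.76 (SE 0.06, limma adjusted p = 0.000159, blocked adjusted p = 0.0261), so these 2 genes moved apart in every knockout array. Otulinl passed in the blocked fit and Otulin did not.

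Otud7b, known as Cezanne and a brake on non-canonical NF-kappaB signalling, rose from 7.62, 7.54 and 7.55 to 8.52, 8.53, 8.24 and 8.12, by 0.78 (SE 0.12, limma adjusted p = 0.00192, blocked adjusted p = 0.0402), and passed in the blocked fit. Of its dimmer probe sets, 1428953_at rose by 0.25 (adjusted p = 0.019, blocked adjusted p = 0.348). The others, 1429139_at and 1457716_at, stood at -0.44 and -0.17 and did not pass. The mean of all its probe sets stood at 0.11 (adjusted p = 0.508). Otud3 fell on its brighter probe set, from 7.12, 6.96 and 6.88 to 6.41, 6.36, 6.40 and 6.31, by 0.62 (SE 0.07, limma adjusted p = 0.000761, blocked adjusted p = 0.105). Knockout arrays did not overlap with wild type for either gene. The dimmer probe set of Otud3 rose, by 0.94 (adjusted p = 0.00384, blocked adjusted p = 0.118), and the mean of both stood at 0.16 (adjusted p = 0.249). Otud4 and Otud6b fell by 0.39 (blocked adjusted p = 0.177) and 0.38 (blocked adjusted p = 0.275), and Otud5 rose by 0.32 (SE 0.11, blocked adjusted p = 0.412).

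**Figure D3:**
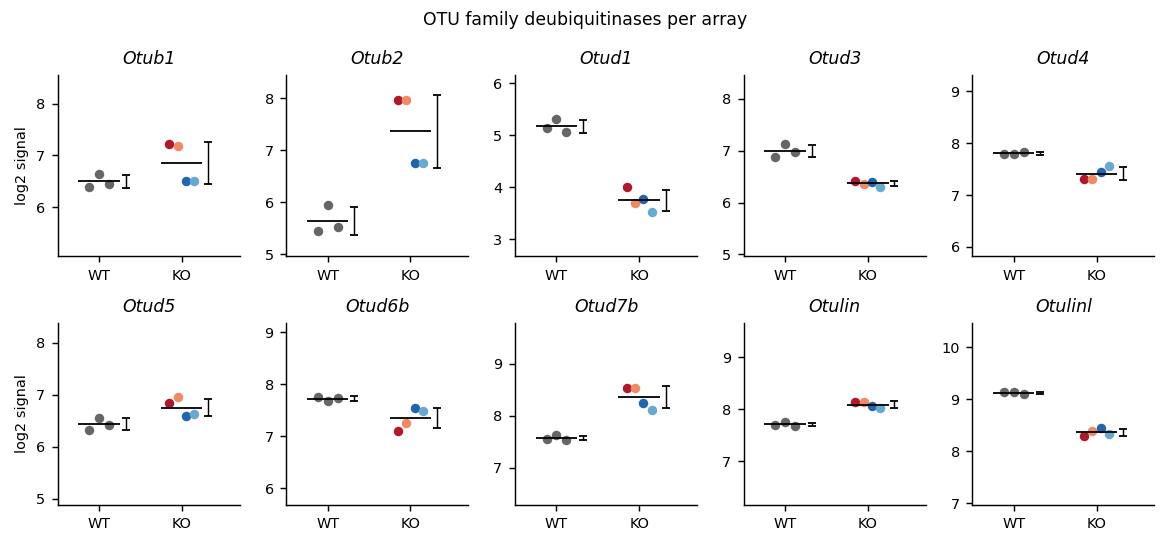
Log2 signal per array of the 10 measured genes with symbols beginning with Otu. Wild type (WT) is grey and knockout (KO) shows replicates 1 to 4 from left to right, with group means as lines and SD as bars. The groups do not overlap in 9 of 10 panels, Otub1 being the exception, against 54.5% of all 9999 genes.

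Both members that act at the proteasome were higher on their brightest probe sets, 1 of them past the threshold. Uchl5 read 9.51, 9.58 and 9.53 in the wild-type arrays and 9.80, 9.81, 10.06 and 10.09 in the knockout arrays, a rise of 0.40 (SE 0.09, limma adjusted p = 0.0128, blocked adjusted p = 0.163), and Usp14 read 9.13, 9.34 and 9.37 in the wild-type arrays and 9.51, 9.49, 9.66 and 9.94 in the knockout arrays, a difference of 0.37 (SE 0.13, limma adjusted p = 0.0508). For both genes all knockout arrays were above wild type and replicates 3 and 4 were the higher. Of the 3 other probe sets of Usp14, 1 fell, with a difference of -0.36 (adjusted p = 0.0438, blocked adjusted p = 0.472).

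On their brightest probe sets, 3 of 13 Usp genes that act on histones and DNA repair factors rose and 1 fell. Of these Usp22 alone passed there in the blocked fit. Usp22, the deubiquitinase of the SAGA coactivator complex, rose from 8.01, 7.99 and 7.99 to 8.86, 8.94, 8.55 and 8.56, by 0.73 (SE 0.11, limma adjusted p = 0.00207, blocked adjusted p = 0.0364), and passed in the blocked fit. Usp3 and Usp47 rose by 0.43 (SE 0.06, blocked adjusted p = 0.105) and 0.48 (SE 0.12, blocked adjusted p = 0.135). A second probe set of Usp3, 1425023_at, rose by 0.45 (adjusted p = 0.0175, blocked adjusted p = 0.415). Another, 1435531_at, went the other way, at -1.03 (adjusted p = 0.000735, blocked adjusted p = 0.0186), and passed in the blocked fit. Usp48 fell from 7.38, 7.23 and 7.42 to 6.92, 6.92, 6.87 and 6.73, by 0.48 (SE 0.08, limma adjusted p = 0.00272, blocked adjusted p = 0.175), and all 3 of its probe sets were lower. Usp7, which stabilises MDM2 and p53, read 9.41, 9.35 and 9.31 in the wild-type arrays and 8.98, 8.84, 9.56 and 9.55 in the knockout arrays. Replicates 1 and 2 lay below and replicates 3 and 4 above every wild-type array, so that the mean difference of -0.12 (SE 0.19) describes no single knockout array. Usp1, which acts on FANCD2 and PCNA, read 10.19, 10.14 and 10.14 in the wild-type arrays and 9.49, 9.52, 10.16 and 10.16 in the knockout arrays, lower in replicates 1 and 2 alone, and did not pass. Its cofactor gene Wdr48 fell, from 7.79, 7.89 and 7.80 to 6.84, 6.64, 7.50 and 7.39, by 0.73 (SE 0.21, limma adjusted p = 0.0284, blocked adjusted p = 0.154).

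Usp2 read 7.43, 7.35 and 7.42 in the wild-type arrays and 6.22, 6.03, 6.72 and 6.66 in the knockout arrays. It was lower in every knockout array, with a difference of -0.998 (SE 0.17, limma adjusted p = 0.00373, blocked adjusted p = 0.0429), fell on both of its probe sets, and passed in the blocked fit. Usp39, a spliceosome protein with a Usp fold and no known cleaving activity, rose from 9.96, 9.94 and 9.88 to 10.75, 10.74, 10.48 and 10.45, by 0.68 (SE 0.10, limma adjusted p = 0.00155, blocked adjusted p = 0.0398), and passed in the blocked fit. Usp54 rose by 0.43 (SE 0.07, blocked adjusted p = 0.161). Usp9x read 6.25, 5.97 and 5.98 in the wild-type arrays and 6.71, 6.76, 6.42 and 6.41 in the knockout arrays, a rise of 0.50 (SE 0.12, limma adjusted p = 0.0144, blocked adjusted p = 0.259) on its probe set of highest overall mean, against the direction of its others. Of 16 further Usp genes 3 rose (Usp15, Usp24 and Usp25, by 0.27 to 0.35) and 4 fell (Usp19, Usp31, Usp32 and Usp37, by 0.27 to 0.44), and none of the 16 passed in the blocked fit on its brightest probe set. Usp45, 1 of the 16, stood at 0.34 there. Its dimmest probe set, 1430708_a_at, rose from 5.19, 5.17 and 5.02 to 7.79, 7.75, 6.41 and 6.43. That rise was 1.97 (SE 0.39, adjusted p = 0.00736, blocked adjusted p = 0.0344). The endosomal Usp8, the mitochondrial Usp30 and Usp5, which disassembles free chains, did not pass, at -0.11, 0.23 and 0.0015.

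Probe sets of the same gene often moved in opposite directions, a comparison made after their values were seen. Of the 82 members 56 had several probe sets. When each of the 17335 single-symbol probe sets was tested on its own (40.9% passed, 19.6% higher and 21.3% lower), 10 of these 56 genes, 17.9%, had probe sets that passed in both directions, against 7.23% of the 4479 genes with several probe sets. They were Otud3, Ube2b, Ube2d3, Ube2h, Usp15, Usp19, Usp24, Usp3, Usp31 and Usp9x. In the blocked fit none of the 10 passed in both directions, against 7 of all 4479 such genes (0.156%), and 12 of the 179 probe sets of members passed, against 7.33% of all probe sets. Probe sets differed by at least 1 log2 unit within 17 of the 56 genes, 30.4%, against 19.6% of all such genes. Which part of the transcript each probe set reads was not analysed here.

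Ube2d3 showed the widest spread. Its brightest probe set (1455479_a_at) was higher in knockout by 0.62 (SE 0.11, adjusted p = 0.00425) and another (1455480_s_at) by 0.79 (SE 0.19, adjusted p = 0.0171). The probe set 1423113_a_at stood at -0.17 (SE 0.06, adjusted p = 0.06) and did not pass. The 4 others fell: 1450858_a_at went from 10.14, 10.17 and 10.17 in wild type to 8.42, 8.37, 9.49 and 9.49 in knockout, and 1423112_at, 1423114_at and 1450859_s_at had differences of -1.80, -2.10 and -2.22. In this naming, a suffix _s_at or _x_at marks probes that can match more than 1 gene. For each of the 6 that passed, replicates 1 and 2 lay further from wild type than replicates 3 and 4, upwards or downwards.

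Ube2d2a and Usp9x had the same kind of split. Of the 4 Ube2d2a probe sets 3 fell, by up to 1.60, while 1416475_at, the dimmest in wild type, stood at 0.31 (SE 0.12, adjusted p = 0.0714) and did not pass. For Usp9x 1 probe set rose by 0.50. Another, 1420922_at, the brightest in wild type, stood at -0.92 (SE 0.18, adjusted p = 0.00744), 1428193_at at -1.41 (SE 0.48, adjusted p = 0.051) and 1428194_at at -1.36 (SE 0.33, adjusted p = 0.0156). Ube2b rose by 0.24 on 1 probe set and fell by 1.10 on the other. The second passed in the blocked fit, as did the falls of 1448356_at and 1416477_at of Ube2d2a. All probe sets passed in the same direction for 4 genes with several: Otub2 (1 of its 2 with wild-type signal under 3.51) and Usp39 higher, and Usp2 and Usp48 lower. The share of all genes with several probe sets for which this holds is not given here, so the count cannot be weighed.

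**Figure D4:**
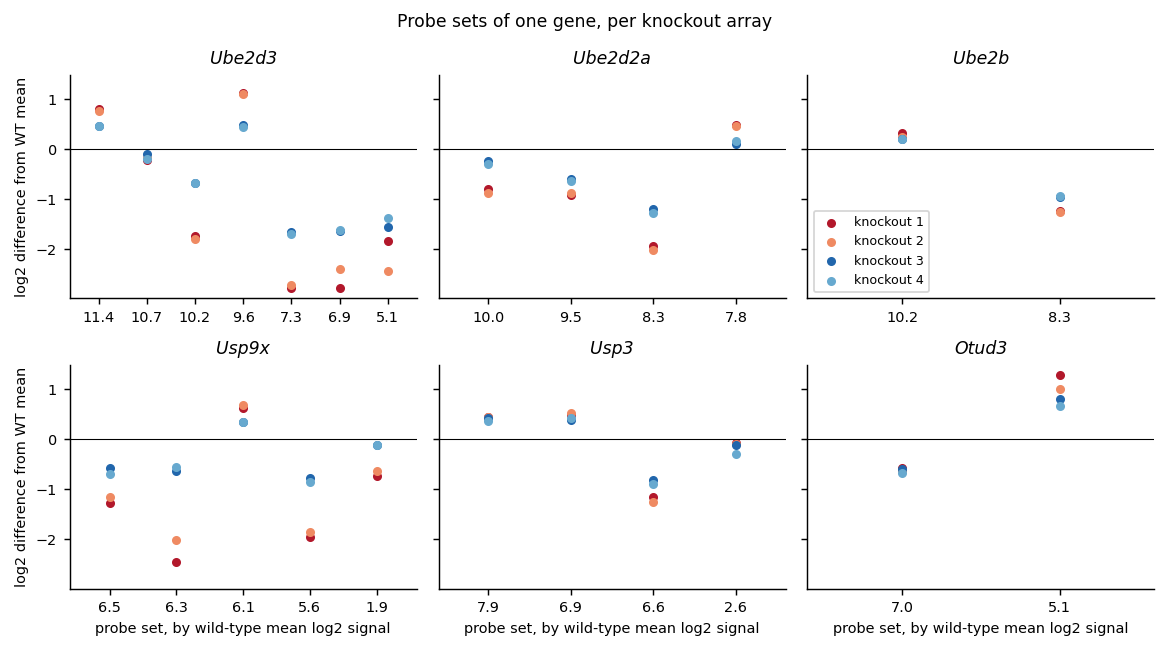
Log2 difference of each knockout array from the wild-type mean (y axis) for every probe set of 6 genes, ordered along the x axis by wild-type mean log2 signal. In each gene some probe sets lie above 0 and others below, and for Ube2d3 the probe set means run from 0.79 to -2.22.

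The choice of probe set turned the balance of the conjugating genes. Over the probe sets other than the brightest, 17 of 39 in the conjugating class fell and 3 rose, against 12 and 11 of 58 in the removing class and 21.8% and 18.4% of all 7336 such probe sets. Their median was -0.24 for conjugating genes, -0.16 for removing genes and -0.04 for all genes, while the brightest probe sets of the same genes had medians of 0.14, 0.19 and 0.00. For the other probe sets of the conjugating class, the medians of the 4 knockout arrays were -0.37, -0.26, -0.16 and -0.14. With a gene's probe sets averaged, 2 conjugating genes rose and 10 fell, against 6 and 2 with the brightest probe set, and in the removing class 11 rose and 9 fell. These were 37.5% of the conjugating and 40% of the removing class. Of all 9999 genes 42.3% passed with that averaging, 2023 higher and 2205 lower.

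The rest of the ubiquitin system, taken from 9 lists of genes that are not members, also moved both ways, and fewer of them passed in the blocked fit. Of 13 RBR ligases and linear chain genes 3 rose and 2 fell: Rnf144b read 7.07, 7.03 and 6.99 in the wild-type arrays and 5.55, 5.59, 4.64 and 4.68 in the knockout arrays, a fall of 1.91 (SE 0.27, blocked adjusted p = 0.00817), while Rnf19b and Arih1, the ligase that works with cullins, rose by 1.46 (SE 0.29, blocked adjusted p = 0.0331) and 1.08 (SE 0.21, blocked adjusted p = 0.0328). The groups were apart for these 3 genes, the only ones of the list to pass in the blocked fit. Of 18 HECT ligases 5 rose and 3 fell, 2 of them past the threshold in the blocked fit, with Herc4 at 1.03 (SE 0.05, limma adjusted p = 2.72e-05, blocked adjusted p = 0.00442), Smurf2, a regulator of TGF-beta signalling, at 0.70 (SE 0.20, blocked adjusted p = 0.122) and Wwp1 at -0.67 (SE 0.08, blocked adjusted p = 0.0446). Of 20 cullin and cullin-ring genes 5 rose and 6 fell, led by the scaffold gene Cul4b at 1.27 (SE 0.12, blocked adjusted p = 0.0161), which alone passed in the blocked fit, with Cul5 at 0.62 (SE 0.09, blocked adjusted p = 0.166) and Klhl9 at -0.61 (SE 0.11, blocked adjusted p = 0.0685).

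Deubiquitinases with symbols outside the rule gave 6 rises and 2 falls among 21 genes. Tnfaip3 (A20), an NF-kappaB-induced brake on the same pathway, rose from 6.50, 6.37 and 6.45 to 7.43, 7.49, 7.10 and 7.08, by 0.84 (SE 0.12, limma adjusted p = 0.00168, blocked adjusted p = 0.0315), and was the only gene of its list to pass in the blocked fit. Josd2 stood at -0.66 (SE 0.14, blocked adjusted p = 0.119) and Zup1 at 0.53 (SE 0.10, blocked adjusted p = 0.12). Of 17 deubiquitinase cofactors 3 rose and 2 fell. The largest change there was in Dmwd, a WD-repeat relative of the Usp12 and Usp46 cofactors, from 5.06, 4.65 and 4.57 to 7.76, 7.81, 6.60 and 6.57, a rise of 2.43 (SE 0.36, limma adjusted p = 0.00193, blocked adjusted p = 0.0215), which alone passed in the blocked fit. Usp46 itself stood at -0.40 (SE 0.18), lower in all knockout arrays without passing. Its probe set brightest in wild type, 1436518_at, fell by 1.14 (adjusted p = 0.00459, blocked adjusted p = 0.0773).

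For the ubiquitin-like proteins, 1 of 8 modifier genes rose (Sumo3, at 0.23 (SE 0.06, blocked adjusted p = 0.403)) and 1 fell (Ubl5, at -0.28 (SE 0.07, blocked adjusted p = 0.384)). Of 19 other genes of their attachment 4 rose and 2 fell, among them the SUMO ligase gene Pias2 (0.83 (SE 0.06, blocked adjusted p = 0.0169)), the NEDD8 ligase gene Dcun1d1 (0.75 (SE 0.20, blocked adjusted p = 0.142)) and Sae1, the partner subunit of the SUMO E1 (-0.67 (SE 0.17, blocked adjusted p = 0.112)). In the blocked fit Pias2 alone of these 27 genes passed. Of 17 genes of their removal 5 rose and 2 fell, none of which passed in the blocked fit. Usp18, the ISG15 protease, read 8.08, 8.04 and 7.94 in the wild-type arrays and 10.46, 10.51, 8.82 and 8.87 in the knockout arrays, highest in replicates 1 and 2 as was Uba7, and rose by 1.65 (SE 0.47, limma adjusted p = 0.0267, blocked adjusted p = 0.0826), while the SUMO protease gene Senp2 stood at 0.50 (SE 0.09, blocked adjusted p = 0.301) and the NEDD8 protease gene Senp8 at -0.49 (SE 0.11, blocked adjusted p = 0.194). Shares passing in the 9 lists ran from 25% to 55%, around the 43.1% of all genes, and in the blocked fit 0 to 3 genes of each list passed, against 9.04% of all genes.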

How the data were processed

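Total RNA of 7 RAW264.7 samples, isolated with TRIzol, was labelled with biotin and measured on Affymetrix arrays, per the labels' protocols. The authors deposited 1 column of normalized intensity per array for 19431 probe sets; RMA is named in the submitters' processing notes, without a version. The deposited values are linear, so log2 was taken here. RMA equalises arrays, so a global change in RNA content cannot be read. Array data have no depth, and the number of arrays limits precision. No background values or detection calls were used.

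Of the probe sets, 17335 had 1 gene symbol in the platform annotation, 532 had several and 1564 had none. Symbols gave 9999 genes, each represented by its probe set of highest mean, with no filter on low signal. Groups and replicate numbers came from sample titles. The groups were compared with limma 3.58.1 (R 4.3.3; 2 groups, moderated two-sided test, Benjamini-Hochberg over 9999 genes, threshold 0.05), which was tested on simulated data. The blocked fit used duplicateCorrelation (consensus correlation 0.794). Per-array values are given for the 10 largest changes per class among genes past the threshold with groups apart, the brightest member of each class and 22 genes of textbook role, 7 of which were not measured. Up to 3 genes per pathway list were named. Other genes and probe sets were named after their values were seen. The members, lists and alternatives were chosen with earlier results of these data known. Promoter windows came from RefSeq (GRCm38.p6).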

Additional observations from a re-analysis of the deposited data

How the results depend on the processing

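Of 31 named members, 5 (Otud1, Otulinl, Usp2, Usp22 and Usp39) kept their direction and their side of the threshold under every alternative that gave a value, 19 for each but Otud1, which had 18 because it was left out with the dim genes. The counts passing, with 8 conjugating and 25 removing genes and 4305 of all genes as reported, were 3, 8 and 1746 when tested against a fold of 1.2, and 1, 6 and 904 with random blocks. With knockout pairs averaged 3 conjugating genes (9.38%) and 3009 of all genes (30.1%) passed. Without knockout arrays 1 and 2, 16 conjugating genes (50%) and 5697 of all genes (57%) passed. Without arrays 3 and 4, 20 conjugating (62.5%), 39 removing (78%) and 6814 of all genes (68.1%) did. Testing each probe set gave 28 of 71 conjugating, 47 of 108 removing and 7088 of all. Leaving out 1 array gave 3 to 9 conjugating, 18 to 28 removing and 2879 to 4465 of all genes; 3 or 4 conjugating genes passed without any single wild-type array or without knockout replicate 1.

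The median difference, 0.11 for conjugating and 0.10 for removing genes, was -0.04 and -0.02 with probe sets averaged and 0.07 and 0.01 with the probe set brightest in wild type, a choice added after the data were seen, as were the test of each probe set and leaving out Ube2d-ps. It was 0.04 and 0.07 without members that act on other proteins than ubiquitin, and 0.05 and 0.07 without Ube2d-ps as well. The removing median was 0.05 without dim genes and 0.05 without knockout arrays 3 and 4. Leaving out 1 array gave 0.09 to 0.12 and 0.09 to 0.13.

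Direction turned with probe sets averaged for Otud3 (0.16), Ube2b (-0.43), Ube2d3 (-0.87), Ube2h (-0.11), Usp14 (-0.15) and Usp9x (-0.72), and with the probe set brightest in wild type for Ube2h (-0.58) and Usp9x (-0.92). It also turned without knockout arrays 1 and 2 for Ube2l6 (-0.32), Usp1 (0.0065) and Usp7 (0.20), without arrays 3 and 4 for Ube2s (-0.07), without knockout replicate 1 for Ube2l6 (-0.08), replicate 2 for Usp7 (0.0092) and replicate 4 for Ube2s (-0.0037), with ranges over single arrays left out of -0.08 to 0.25 for Ube2l6, -0.23 to 0.0092 for Usp7 and -0.0037 to 0.08 for Ube2s. Averaging and other choices of probe set change which probes are read; other causes were not tested.

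With a replicate block 7 conjugating, 23 removing and 3805 of all genes passed, with medians of 0.10 and 0.09, and Ube2s stood at -0.0037. Replicate numbers do not pair the arrays: same-numbered arrays had correlations of 0.124, -0.0902 and 0.106 between their deviations from group means, and not every array correlated best with its own number.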
